A study of Mus musculus with 4 samples.

Results

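The genes described here encode the proteins that load, dock, fuse and recycle synaptic vesicles. They were chosen by gene symbol, 30 genes of the 31053 in the deposited matrices, and their levels were read in the neurons and glia of mouse hippocampus in 3 libraries. All 30 had at least 1 UMI (unique molecular identifier, 1 counted RNA molecule) in every library. By role they comprised 2 synapsins (Syn1, Syn2), 5 other proteins of the vesicle membrane (Syp, Syngr1, Syngr3, Sv2a, Sv2b), 3 synaptotagmins (Syt1, Syt4, Syt11), 6 proteins of SNARE fusion and disassembly (Snap25, Stx1a, Vamp1, Vamp2, Nsf, Napb), 2 complexins (Cplx1, Cplx2), 5 proteins of the active zone and priming (Rab3a, Rims1, Unc13a, Bsn, Pclo), 3 of endocytosis (Synj1, Dnm1, Amph), beta-synuclein (Sncb) and 3 vesicular transporters (Slc17a7, Slc17a6, Slc32a1).

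A synaptic vesicle is filled by a transporter that sets its transmitter, glutamate or GABA, and is tethered at the active zone by the scaffolds Bassoon (Bsn) and Piccolo (Pclo). The small GTPase Rab3a, Rims1 and Unc13a (Munc13-1) prime it, the SNARE proteins Snap25, syntaxin (Stx1a) and synaptobrevin (Vamp1, Vamp2) fuse it with the plasma membrane when synaptotagmin Syt1 senses calcium, and dynamin (Dnm1), amphiphysin (Amph) and synaptojanin (Synj1) help to retrieve its membrane. Hippocampal neurons carry out this cycle at every release site, and several of the same proteins also serve membrane traffic in glia.

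Each library held the whole hippocampus of a C57BL/6 mouse, taken 7 days after surgery and read by droplet sequencing of RNA 3′ ends. In 2VO (two-vessel occlusion) both common carotid arteries were clamped for 50 min, and in sham mice they were clamped and released at once. The 2 sham libraries and 1 of the 2 labelled 2VO libraries were used, and the other 2VO library was not analysed here. The 2VO condition therefore rests on 1 mouse, and a difference between mice and a difference between conditions cannot be told apart. The mice were 12 weeks old by the labels and 6 to 10 weeks old by the study's methods.

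After the minimum of 650 detected genes per barcode, 5109, 5126 and 3912 cells were kept from sham 1, sham 2 and 2VO 1, and their median depths were 8191, 5249 and 2311 UMIs. Cells were clustered without the 30 genes and named from markers that do not include them, so that all class names below stand for cells resembling that type: glutamatergic neurons (GLUTNs), GABAergic neurons (GABANs), Cajal-Retzius neurons, neural progenitor and immature cells (NPCs), astrocytes (ASTs), oligodendrocyte precursors (OPCs), oligodendrocytes (OLGs), microglia, macrophages, pericytes (PERs), endothelial cells (ECs), smooth muscle cells of vessels (VSMCs), leptomeningeal cells of vessels (VLMCs) and choroid plexus epithelial cells (CPECs). In the order sham 1, sham 2 and 2VO 1, in which all triplets of values are given below, there were 46, 89 and 14 GLUTNs, 41, 46 and 13 GABANs, 47, 25 and 22 Cajal-Retzius neurons and 116, 64 and 17 NPCs. Neurons were few beside 1519, 1057 and 768 OLGs and 1048, 1645 and 1278 ECs. Between 16 and 19 barcodes of each library shared their letters with a barcode of another library.

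GLUTNs fell into 3 subclusters, and different ones held most of the cells in sham and in 2VO. A subcluster led by C1ql2 (C1ql2 GLUTNs) held 14, 23 and 11 cells, a subcluster led by Cpne4 held 15, 17 and 1, and a subcluster led by Spink8 held 17, 49 and 2. Values of 2VO GLUTNs are therefore given for all GLUTNs and for the C1ql2 GLUTNs alone.

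The promoter windows of 4 of the genes are shown first, because Rab3a was called in the most classes in 2VO against sham, because Syt11 and Unc13a lay above both sham libraries in the most classes, and because Syn1 and Unc13a were the members that held a match to the REST element, the site of a repressor of neuronal genes in other cells. Each window runs from 250 bases before to 50 bases after a RefSeq transcript start (GRCm38.p6), 5′ to 3′ on the gene's strand, and capitals mark motif matches on either strand. Windows were found for 26 of the 30 genes, and those of Syngr3, Syt4, Snap25 and Vamp2 were not. Rab3a has a pair of windows, of which the first is shown, chr8:70754453-70754752 on the plus strand. The others are the Syt11 window chr3:88772550-88772849, the Unc13a window chr8:71671708-71672007 and the Syn1 window chrX:20920869-20921168, all 3 on the minus strand.
Rab3a: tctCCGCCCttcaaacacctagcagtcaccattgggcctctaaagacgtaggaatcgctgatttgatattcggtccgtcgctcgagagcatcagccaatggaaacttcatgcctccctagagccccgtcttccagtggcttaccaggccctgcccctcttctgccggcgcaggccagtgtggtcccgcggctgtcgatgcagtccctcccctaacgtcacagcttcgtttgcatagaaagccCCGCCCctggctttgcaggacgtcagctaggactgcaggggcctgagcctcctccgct
Syt11: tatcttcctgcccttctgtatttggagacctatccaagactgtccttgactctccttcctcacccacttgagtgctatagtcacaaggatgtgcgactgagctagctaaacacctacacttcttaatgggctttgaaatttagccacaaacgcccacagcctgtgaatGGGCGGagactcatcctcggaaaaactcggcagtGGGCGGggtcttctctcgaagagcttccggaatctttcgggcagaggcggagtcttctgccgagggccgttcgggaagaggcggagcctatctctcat
Unc13a: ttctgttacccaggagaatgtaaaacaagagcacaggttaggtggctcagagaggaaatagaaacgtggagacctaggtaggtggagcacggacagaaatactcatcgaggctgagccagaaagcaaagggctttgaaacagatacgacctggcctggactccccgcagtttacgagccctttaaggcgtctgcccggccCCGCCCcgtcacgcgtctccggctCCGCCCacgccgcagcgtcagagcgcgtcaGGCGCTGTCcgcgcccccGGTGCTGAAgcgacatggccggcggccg
Syn1: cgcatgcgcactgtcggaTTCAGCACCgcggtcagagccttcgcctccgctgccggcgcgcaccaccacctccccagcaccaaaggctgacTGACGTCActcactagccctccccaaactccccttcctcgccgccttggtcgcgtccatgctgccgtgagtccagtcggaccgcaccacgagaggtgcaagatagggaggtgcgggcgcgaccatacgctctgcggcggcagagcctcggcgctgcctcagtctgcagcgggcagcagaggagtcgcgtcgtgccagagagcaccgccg

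The left arm of the REST element, searched as TTCAGCACC, stands in capitals in the Syn1 window and, as its reverse complement GGTGCTGAA, in the Unc13a window, and 0.371% of all 32851 windows held it. The Unc13a window also held the right arm, searched as GACAGCGCC and printed there as its reverse complement, which 0.326% of windows held. The Syn1 window held the cAMP response element TGACGTCA, found in 1.79% of windows. The GC box GGGCGG, in capitals in the Rab3a, Syt11 and Unc13a windows as itself or its reverse complement, was in 35.7% of all windows and in 19 of the 34 windows of the 26 members. The other Rab3a window, chr8:70754852-70755151, held none of these motifs. These matches describe letters in the windows and were not tested as sites.

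The 30 genes together took the most counts in neurons. Summed over the list, GLUTNs held 145, 131 and 108 UMIs per 10000, GABANs 133, 109 and 211, and Cajal-Retzius neurons 48.1, 42.5 and 50.9. NPCs held 23.1, 24.7 and 34.9, OLGs 32.7, 25.9 and 35, OPCs 20.1, 19.8 and 26.6, and ASTs 13.9, 14.6 and 11.5. ECs, which are not known to release synaptic vesicles, held 4.59, 5.21 and 7.33, and this is the level beside which traces of neuronal members in other classes are read. With each cell thinned to 1000 UMIs, a GLUTN showed on average 9.26, 7.86 and 8.43 of the 30 genes and a GABAN 7.75, 7.09 and 11.4, whereas an OPC showed 1.58, 1.63 and 1.97.

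**Figure D1:**
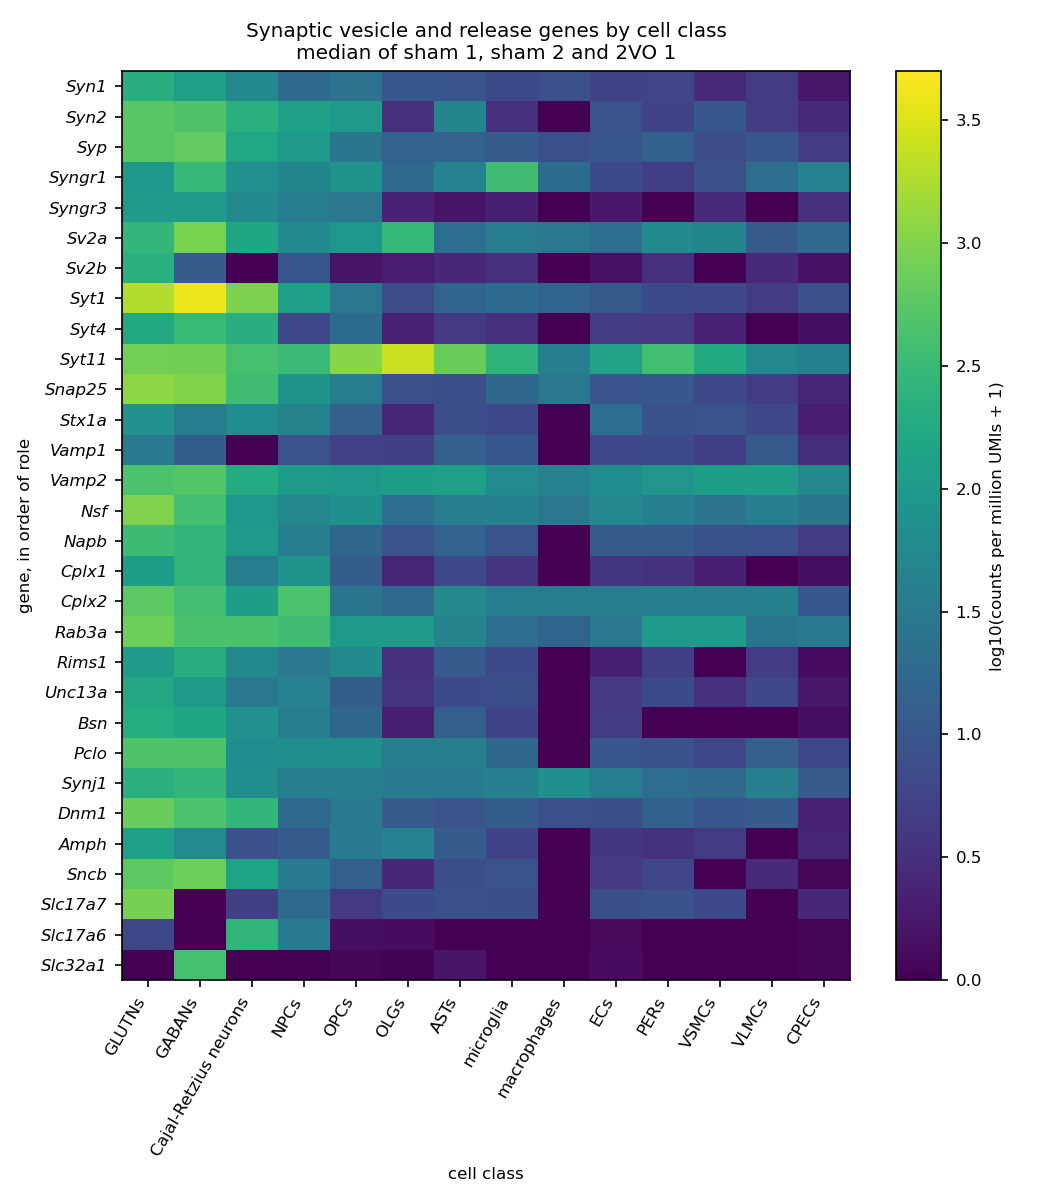
Level of each of the 30 genes (rows, in order of role) in each cell class (columns), as the colour of log10(CPM + 1), where CPM is counts per 1000000 UMIs, the median of sham 1, sham 2 and 2VO 1. GLUTNs and GABANs are bright for nearly the whole list, while Syt11 is bright in OLGs, OPCs and ASTs too, and Syngr1 in microglia.

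The 3 transporters, which were not used to name the classes, divided the neurons. Levels are given as CPM, the counts of a gene per 1000000 UMIs of the class and library. Slc17a7, the vesicular glutamate transporter VGLUT1, stood at 982, 679 and 871 CPM in GLUTNs and was at 0, 2.81 and 0 in GABANs, where it rested on 1 UMI. Slc32a1, the vesicular GABA transporter, stood at 425, 363 and 520 CPM in GABANs and had 0 UMIs in the GLUTNs of every library. Pooled over libraries, Slc32a1 was at least 204-fold higher in GABANs than in GLUTNs, with 3 counts over the 149 GLUTNs as the limit that a count of 0 allows. The ratio of Slc17a7 in GLUTNs to GABANs was 598, with an exact counting interval of 107 to 23642 from 1160 UMIs against 1. Slc17a6, the vesicular glutamate transporter VGLUT2, marked Cajal-Retzius neurons at 342, 232 and 266 CPM, against 5.25, 9.42 and 0 in GLUTNs.

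The share of cells with a UMI depends on depth, and is given with an exact (Clopper-Pearson) 95% interval that covers counting error only. Slc17a7 was seen in 84.8% (71.1 to 93.7), 85.4% (76.3 to 92.0) and 85.7% (57.2 to 98.2) of GLUTNs, and in 1.53%, 2.98% and 1.80% of ECs, which should lack it and are taken here as the background. Median depths of these GLUTNs were 3393, 4259 and 5473 UMIs, so the 2VO GLUTNs were not shallower than the sham ones, unlike most classes. Slc32a1 was seen in 78.0% (62.4 to 89.4), 69.6% (54.2 to 82.3) and 84.6% (54.6 to 98.1) of GABANs. Slc17a6 was seen in 74.5% and 72.0% of sham and 36.4% of 2VO Cajal-Retzius neurons, but with every cell thinned to 1000 UMIs these shares were 23.4%, 20% and 23.8%, so the gap in the unthinned shares was not there at equal depth. Thinned in the same way, Slc17a7 was seen in 69.0%, 43.2% and 64.3% of GLUTNs, with the 2VO share between the sham shares.

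Few neurons of the named classes carried UMIs of more than 1 transporter. Of the 149 GLUTNs, 120 had Slc17a7 alone, 7 had Slc17a7 and Slc17a6, 22 had none and 0 had Slc32a1. Of the 100 GABANs, 75 had Slc32a1 alone, and of the 94 Cajal-Retzius neurons 59 had Slc17a6 alone and 2 had both glutamate transporters. NPCs mostly lacked all 3, with none seen in 158 of 197 cells. Among 300 neurons that could not be named, 156 had Slc17a7 alone and 22 had Slc32a1 alone. A further 18 had Slc17a7 and Slc17a6, and 5 had a glutamate transporter together with Slc32a1.

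**Figure D2:**
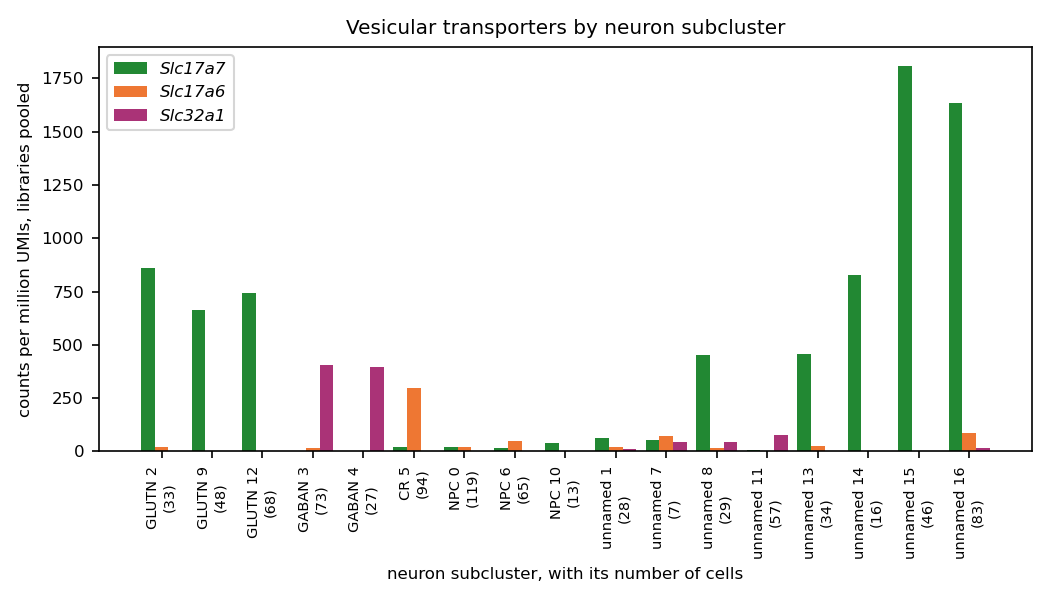
Slc17a7, Slc17a6 and Slc32a1 (bars, CPM with the libraries pooled) in each neuron subcluster, with its number of cells in brackets. Slc32a1 stands at 407 and 396 in GABAN subclusters 3 and 4, Slc17a6 at 298 in Cajal-Retzius subcluster 5, and Slc17a7 is highest in the unnamed subclusters 15 and 16, at 1807 and 1635, above the 663 to 859 of the 3 GLUTN subclusters.

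The neuron types were then compared over libraries with edgeR's quasi-likelihood test, with the library as a block because both classes of a library come from the same mouse. Calls needed a fold over 1.5 and an adjusted p under 0.05, with the Benjamini-Hochberg adjustment made over all genes tested. Fold changes are on the scale of edgeR's TMM normalisation, and the levels beside them are plain CPM.

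GABANs and GLUTNs were the first pair in which the members were compared. Of 29 tested, 3 were called higher and 2 lower in GABANs, where 5.77% of all 6556 genes were called higher, 6.38% lower and 12.1% in all. The transporters Slc32a1 and Slc17a7 were among them in the directions given above. Sv2a, a vesicle glycoprotein that binds the antiepileptic drug levetiracetam, was at 902, 717 and 1369 CPM in GABANs and 368, 187 and 277 in GLUTNs. Every GABAN value lay above every GLUTN value, and the log2 fold change was 1.80 (SE 0.36, edgeR adjusted p = 0.00188). Its paralog Sv2b ran the other way, with 10.8, 0 and 17.3 CPM in GABANs against 297, 221 and 52.8 in GLUTNs (log2 fold change −5.18, SE 0.61, edgeR adjusted p = 1.42e-05), and the GABAN values rest on 4, 0 and 1 UMIs. Syngr1, the tetraspan vesicle protein synaptogyrin 1, was at 290, 245 and 520 CPM in GABANs and 155, 87.6 and 92.4 in GLUTNs (1.45, SE 0.34, edgeR adjusted p = 0.00728), again without overlap. The other 24 members tested were not called, among them the calcium sensor Syt1 with 4090, 2101 and 4887 CPM in GABANs and 2259, 1871 and 1241 in GLUTNs. Without sham 2 the count of called members was 3, with Sv2a (edgeR adjusted p = 0.0767) and Syngr1 (0.138) no longer called, and without 2VO 1 it was 11. Over all genes, 186 were called higher and 193 lower of 5369 without sham 2, and 604 and 628 of 6791 without 2VO 1.

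Sv2b was not even over the GLUTNs. It had 0 UMIs in the C1ql2 GLUTNs of every library and 113, 235 and 4 UMIs in the other GLUTNs. Pooled, it was at least 38.6-fold higher in the other GLUTNs, with 3 counts over the C1ql2 GLUTNs as the limit. Since the 2VO GLUTNs were mostly C1ql2 GLUTNs, the 52.8 CPM of Sv2b in 2VO GLUTNs beside 297 and 221 in sham moved with this makeup, and its part in that difference was not tested. With the C1ql2 GLUTNs alone set against GABANs, 9 members were called instead of 5. Over all 3695 genes tested there, 410 were called higher and 443 lower, beside 12.1% of 6556 genes with all GLUTNs.

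Cajal-Retzius neurons held less of most members than GLUTNs. Of 28 tested, 22 were called lower and 1 higher, where 19.0% and 17.3% of all 4315 genes were called lower and higher (36.3% in all). The member that was higher was Slc17a6, at a log2 fold change of 5.22 (SE 0.46, edgeR adjusted p = 7.97e-21). The largest falls were in Slc17a7 (log2 fold change −5.17), Sv2b (−3.41) and Nsf (−3.02). Nsf, the ATPase that takes SNARE complexes apart, was at 138, 94.4 and 57.0 CPM in Cajal-Retzius neurons and 977, 737 and 1214 in GLUTNs. The 2 classes did not overlap.

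NPCs held the least of the 4 neuronal classes. Of 29 members tested, 27 were called lower than in GLUTNs and 1 higher, where 22.8% and 19.2% of all 6985 genes were called lower and higher (42.0% in all). Dnm1, the neuronal dynamin that cuts vesicles from the membrane, was at 17.5, 7.92 and 27.7 CPM in NPCs against 725, 595 and 726 in GLUTNs (log2 fold change −5.44, SE 0.44 by edgeR). Slc17a7 (−5.30) and Sv2b (−4.79) followed. Slc17a6 was higher in NPCs at 35, 31.7 and 27.7 CPM (2.18, SE 0.67, edgeR adjusted p = 0.00386), and its 2VO value rests on 1 UMI. The call was lost with a minimum of 200 detected genes, with the C1ql2 GLUTNs alone, without sham 1, without sham 2 and with DESeq2 (adjusted p = 0.0703). The member not called was complexin 2 (Cplx2), a clamp and activator of SNARE fusion, which at 445, 457 and 415 CPM in NPCs lay below 588, 605 and 594 in GLUTNs.

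Syt11 was higher in OLGs and OPCs than in GLUTNs, and Sv2a was as high in OLGs as in GLUTNs. Syt11, a synaptotagmin that does not bind calcium and is known from membrane traffic outside synapses, was at 2520, 1837 and 2561 CPM in OLGs, 1105, 927 and 1417 in OPCs and 825, 699 and 651 in ASTs, beside 822, 502 and 898 in GLUTNs. The OLG values lay above those of every other class in all 3 libraries. The median over libraries of the ratio to GLUTNs was 306% in OLGs and 134% in OPCs. Sv2a was also at 295, 253 and 441 CPM in OLGs, or 106% of GLUTNs as the median, while GABANs held 306%, 283% and 310% of the OLG level of Sv2a. By contrast Snap25, the SNARE protein of neuronal plasma membranes, was at 1.85, 6.92 and 7.43 CPM in OLGs and 8.14, 8.38 and 8.82 in ECs, beside 1192, 1735 and 752 in GLUTNs, and the median ratios to GLUTNs were 0.58% and 0.70%.

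ECs and microglia carried Syt11 in nearly the ratio to myelin RNA that OLGs had, with 2.02, 2.13 and 3.47 Syt11 UMIs per 100 UMIs of 13 myelin genes in ECs, 2.20, 2.53 and 3.55 in microglia and 2.13, 1.93 and 3.17 in OLGs. In ECs the myelin genes stood at 5.54%, 5% and 10.5% of their OLG level, and Syt11 at 5.27%, 5.50% and 11.5% of its own. OPCs had 6.34, 11.4 and 16.7 and ASTs 15.4, 17.9 and 19.8 Syt11 UMIs per 100 myelin UMIs, above the OLG ratio of each library. GLUTNs had 154, 200 and 33.7. Macrophages, at 0.917, 3.57 and 2.88 on 1, 4 and 38 Syt11 UMIs, and VLMCs, at 0.0807, 0.0656 and 0.608, did not keep the OLG ratio in every library. The myelin list holds Ptgds, which VLMCs are known to express.

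**Figure D3:**
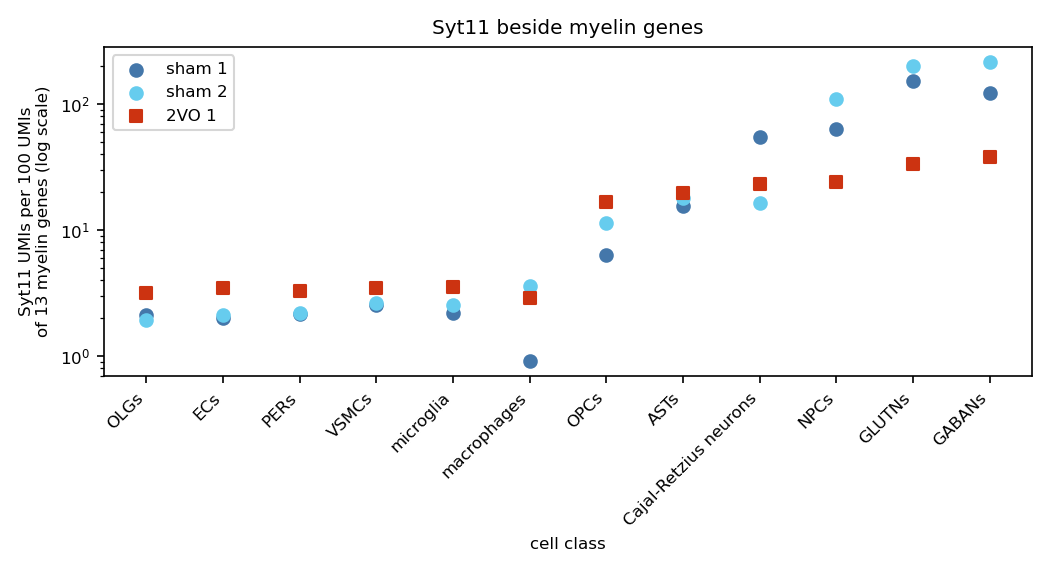
Syt11 UMIs per 100 UMIs of 13 myelin genes (log axis) in 12 cell classes, a point for each library. ECs, PERs, VSMCs and microglia lie near OLGs in each library, from 1.93 to 3.55, while OPCs, ASTs and the neuronal classes lie above it.

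In microglia Syngr1 was the only one of 28 members with a median level above that of GLUTNs. It was at 333, 379 and 368 CPM there, 398% of its GLUTN level, and was seen in 66%, 67.2% and 44.5% of microglia (23.8%, 29.4% and 28.3% with each cell thinned to 1000 UMIs). The 3 libraries lay close together. In ECs it was at 2.33, 5.74 and 9.11 CPM, and in macrophages, the nearest immune class, at 0, 19.3 and 85.0 CPM on 0, 2 and 12 UMIs.

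Within the oligodendrocyte lineage the members differed by stage. Of 27 tested, 14 were called higher and 6 lower in OPCs than in OLGs, where 27.1% and 25.3% of all 12248 genes were called higher and lower (52.4% in all). Synapsin 2 (Syn2), which ties vesicles to actin, was at 84.2, 97.0 and 109 CPM in OPCs and 2.00, 2.16 and 3.71 in OLGs (log2 fold change 4.61, SE 0.17, edgeR adjusted p = 1.71e-07). Syngr3 (3.61) and Rims1 (3.53), the latter a scaffold that ties calcium channels to the release site, followed, with Rims1 at 40.5, 58.7 and 65.0 CPM in OPCs. All OPC values of these 3 genes lay above all OLG values. The 6 lower members included Sv2a (−2.46, SE 0.14, edgeR adjusted p = 7.28e-07), Syt11 (−1.70, SE 0.19, edgeR adjusted p = 4.48e-05) and Vamp2 (−1.10), the main synaptobrevin of the brain. The other 3 were Rab3a, Amph and Slc17a7, of which Slc17a7 was at 6.5 CPM or less in both classes, within the range of ECs. TMM scaling moved OPCs against OLGs by −0.75 on the log2 scale (−0.80 to −0.51 over the libraries) relative to plain CPM. On the plain scale all 14 higher members were over 1.5-fold higher, but of the 6 lower ones 3 were over 1.5-fold lower. Vamp2, at 91.8, 92.4 and 89.2 CPM in OPCs and 115, 117 and 135 in OLGs, Rab3a, at 110, 104 and 40.8 and at 122, 111 and 52.0, and Amph differed by less than that, so their calls rest on the scaling.

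ASTs also held more Syn2 than OLGs. Of 22 members tested, 9 were called higher and 4 lower in ASTs, where 27.6% and 24.5% of all 10575 genes were called higher and lower (52.0% in all). Syn2 was at 47.5, 46.9 and 34.2 CPM in ASTs (log2 fold change 4.06, SE 0.32 by edgeR), followed by Bsn (2.96), at 7.79, 12.4 and 13.7 CPM, and Sncb (2.11), at 5.45, 8.47 and 6.85 CPM. The Bsn and Sncb levels are not far above the 2.56 to 3.49 and 3.02 to 4.97 CPM of ECs. Slc17a7 and Syt1, also among the 9, stood at 0.80% and 0.79% of their GLUTN levels as the median. In ECs these were 0.78% and 0.55%. The largest falls were in Sv2a (−4.10), Amph (−2.41) and Syt11 (−1.89), and Rab3a was the fourth. TMM scaling moved ASTs against OLGs by −0.22 relative to plain CPM, and all 13 called members were over 1.5-fold apart on both scales. Syn2 in ECs was at 5.81, 7.76 and 7.97 CPM, so in ASTs it stood clear of that level in every library. Without sham 2 the count of called members was 8 instead of 13. Over all 10699 genes tested, 2165 were then called higher and 2100 lower.

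The question of 2VO against sham was then taken class by class, with 2 sham libraries and 1 2VO library and 1 residual degree of freedom, so that the spread of the single 2VO library had to be taken from sham. Fewer cells of a type and less RNA per cell do not enter these levels, which are relative to the UMIs of each class. TMM scaling moved 2VO against sham by −0.43 (NPCs) to −0.02 (C1ql2 GLUTNs) on the log2 scale relative to plain CPM.

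Rab3a, the vesicle GTPase that recruits Rims1, was the member that fell in the most classes. In OPCs it was at 110, 104 and 40.8 CPM, and the log2 fold change was −1.63 (SE 0.28, edgeR adjusted p = 0.000305). In OLGs it was at 122, 111 and 52.0 CPM (−1.5, SE 0.20, edgeR adjusted p = 0.0466). In NPCs it was at 369, 525 and 194 CPM (−1.62, SE 0.45, edgeR adjusted p = 0.0149), and in Cajal-Retzius neurons at 459, 436 and 190 (−1.33, SE 0.40, edgeR adjusted p = 0.0449). In each of these 4 classes 2VO 1 was lower than either sham library. The Rab3a values of 2VO rest on 7 UMIs in NPCs and 10 in Cajal-Retzius neurons, beside 64 in OPCs and 112 in OLGs. The call was lost in OPCs with a minimum of 200 detected genes (edgeR adjusted p = 0.0819), in OLGs with the release genes used in the clustering (0.0605), in Cajal-Retzius neurons without doublets (0.196) and with RLE size factors (0.0675), and in both neuronal classes with DESeq2 (adjusted p = 0.986 in Cajal-Retzius neurons and 0.105 in NPCs). With sums thinned to the smallest library it was lost in OLGs, Cajal-Retzius neurons and NPCs, and in NPCs the log2 fold change was then −0.32. Some of these settings called no gene at all. These were OPCs with the minimum of 200 genes (0 of 12489) and OLGs with the release genes used (0 of 12514). The others were OLGs with thinned sums (0 of 10090) and Cajal-Retzius neurons without doublets (0 of 4275).

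The same order was seen where the test was not passed. Rab3a was at 772, 1141 and 343 CPM in GLUTNs (log2 fold change −1.74, SE 0.72, edgeR adjusted p = 0.176), 524, 774 and 335 in C1ql2 GLUTNs, 431, 990 and 364 in GABANs and 44.4, 54.8 and 20.5 in ASTs. In a GABAN subcluster led by Sst and Npy, with 22, 42 and 9 cells, Rab3a was at 288, 1043 and 514 CPM. There 2VO lay between the sham libraries. In the other, led by Hapln1 and Lhx6, it was at 561, 184 and 96.4 CPM on 108, 4 and 2 UMIs. The AST values rest on 57, 84 and 3 UMIs. Over 14 classes the 2VO library lay below both sham libraries in 12, the exceptions being microglia (27.4, 18.2 and 19.8 CPM) and macrophages (14.3, 9.67 and 42.5, on 1, 1 and 6 UMIs). Among the 12, the 2VO value was nearly level with sham 2 in CPECs and rested on 1 UMI in VLMCs. Of 9749 genes with a UMI in each class, 4.78% lay below both in 12 or more classes, and Rab3a was the only one of 21 members with such counts to do so. On the TMM scale it lay below both in 8 of the 8 classes tested. The classes share the same 3 mice, so these are not 12 independent observations, and Rab3a was singled out after its values were seen.

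**Figure D4:**
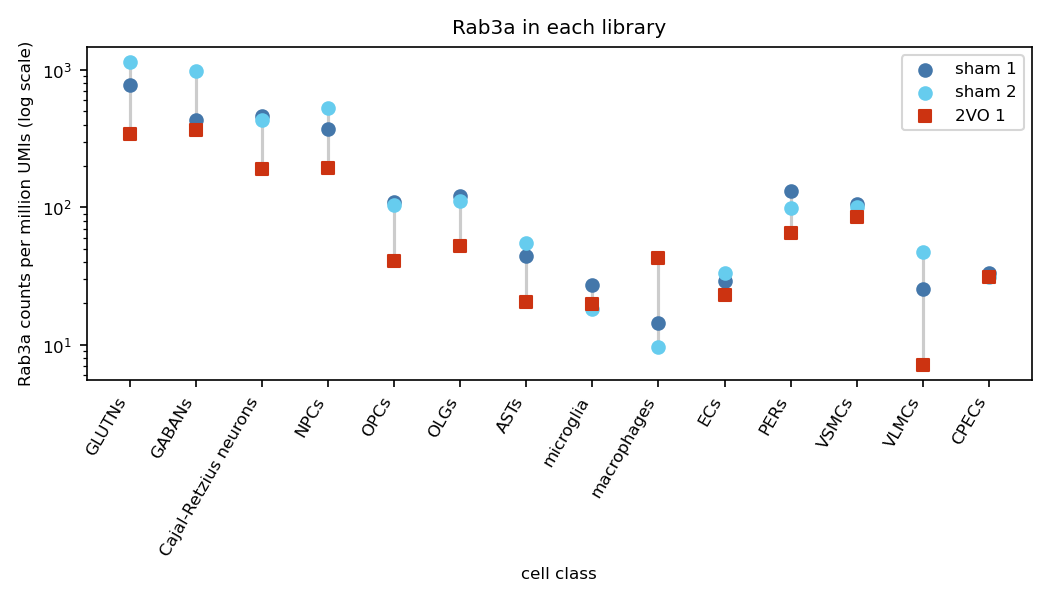
Rab3a CPM (log axis) in 14 cell classes, a point for each library, with a grey line over their range. The red square of 2VO 1 is the lowest point in 12 classes, and lies within or above the sham points in microglia and macrophages.

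Depth and cell makeup differed between these libraries in OPCs and OLGs, and Rab3a was therefore also read at equal depth and within clusters. With every cell thinned to 1000 UMIs, Rab3a was seen in 7.73%, 6.79% and 3.16% of OPCs and in 12.0%, 9.65% and 4.58% of OLGs, beside 43.0%, 41.0% and 10.2% and 69.7%, 56.7% and 12.0% unthinned. In ECs the thinned shares were 2.55%, 2.93% and 2.32%. At equal depth the share was thus still lowest in 2VO in both glial classes.

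The makeup of the OPCs and OLGs by cluster also differed between libraries. A cluster led by Pcdh15 and Pdgfra held 48, 34 and 387 OPCs, and in it Rab3a was at 103, 103 and 21.3 CPM. In the cluster led by Cdo1 and C1ql1, with 554, 263 and 62 OPCs, it was at 55.8, 73.6 and 58.0 CPM, and 2VO 1 was between the sham libraries. In the cluster led by Pcdh15 the 2VO value was far below both, and in the one led by Cdo1 it was not. In the third OPC cluster, led by genes of committed precursors such as Bmp4 and Gpr17, it was at 192, 225 and 143 CPM. In the OLG cluster led by C4b, which held 82, 257 and 692 cells, it was at 86.1, 92.8 and 48.1 CPM, and in the largest sham cluster, led by Opalin, at 110, 107 and 66.6. Rab3a thus lay below both sham values in both of these OLG clusters and in 2 of the 3 OPC clusters.

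Rab3a lies on chromosome 8 (70754679 to 70758677, plus strand, GRCm38), and an exon of Mpv17l2 on the other strand overlaps its exons. Mpv17l2 was at 38.5, 27.9 and 22.3 CPM in OPCs, 44.4, 35.2 and 26.0 in OLGs and 22.1, 23.3 and 23.1 in ECs. The strand setting of the counting is not given in the sources used here, and its part in the Rab3a values was not tested.

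OPCs had the most called members, in a class where 30.1% of all 12450 genes were called. Of 27 tested, 4 were called higher, against 13.2% of all genes, and 1, Rab3a, lower, against 16.9%. Snap25 was at 29.1, 35.8 and 77.1 CPM (log2 fold change 1.03, SE 0.26, edgeR adjusted p = 0.00522). Dnm1 was at 23.9, 32.9 and 66.9 CPM (1.03, SE 0.28, edgeR adjusted p = 0.00738). Syt4, a synaptotagmin that does not bind calcium, was at 13.4, 19.6 and 35.7 CPM (0.92, SE 0.34, edgeR adjusted p = 0.0394), and Vamp1 at 4.13, 4.16 and 14.7 (1.57, SE 0.60, edgeR adjusted p = 0.0496). The 2VO value lay above both sham values for each of these 4. With a minimum of 200 detected genes all 4 calls were lost (edgeR adjusted p from 0.0827 to 0.163), and 0 of all 12489 genes were called. In the same OPCs 11 of 13 microglial genes (median log2 fold change 4.36) and 5 of 8 endothelial genes (1.68) were called higher. Summed over each list they took 9.65, 14.9 and 17.4 and 9.90, 17.4 and 24.1 UMIs per 10000, and their part in the OPC values was not tested.

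Within the 3 OPC clusters Syt4 and Vamp1 lay above both sham values in each, and Snap25 and Dnm1 in 2 of them. Snap25 was at 26.7, 32.7 and 100.2 CPM in the cluster led by Pcdh15, but at 45.9, 44.0 and 34.8 in the cluster led by Cdo1 and at 4.62, 4.58 and 6.82 in the committed one. Dnm1 was at 44.5, 70.0 and 81.6 in the first, 30.3, 31.4 and 46.4 in the second, and 10, 20.6 and 6.82 in the committed one, where the 2VO value rests on 1 UMI. Vamp1 rested on 2 UMIs of 2VO in each of the last 2 clusters. Syt4 was highest in the committed cluster of 2VO, at 16.9, 41.2 and 177 CPM on 44, 18 and 26 UMIs. The cluster led by Pcdh15 held 387 of the 491 OPCs of 2VO 1, and the part of this makeup in the 4 calls was not tested.

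GLUTNs had 1 called member of 28, where 1.93% of all 8036 genes were called. It was Stx1a, the syntaxin of the presynaptic membrane, with 28, 125 and 0 UMIs or 73.5, 118 and 0 CPM (edgeR adjusted p = 0.0264). Against the 3 counts that a count of 0 allows in the 14 GLUTNs of 2VO (39.6 CPM), it was at least 2.42-fold lower than the sham mean. In C1ql2 GLUTNs, which were 11 of the 14 GLUTNs of 2VO, it had 3, 7 and 0 UMIs, or 25.8, 37.4 and 0 CPM, and was too low to be tested. Both sham values there lay below the 41.9 CPM that 3 counts stand for in 2VO, so these counts cannot show a fall. In the other GLUTNs it was at 94.6, 135 and 0 CPM, with 3 cells in 2VO. The part of this makeup in the call was not tested. With a minimum of 200 detected genes the call was lost (edgeR adjusted p = 0.629). In that setting 0 cells were named C1ql2 GLUTNs. The GLUTNs were then 64, 129 and 12 cells, with 9354 UMIs in 2VO beside 75765 before. Over all 5574 genes, 1 was called higher and 0 lower. Over the 28 members the median log2 fold change was −0.60 beside −0.07 over all genes, but in the C1ql2 GLUTNs it was 0.19 over 24 members beside −0.03, with 0 members called by edgeR or by DESeq2, 1 at an unadjusted p under 0.05, and 0.299% of all 3685 genes called.

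In 2VO GLUTNs the 13 myelin genes took 5.33, 2.51 and 26.7 UMIs per 10000 and the microglial genes 3.52, 3.22 and 18.4. Both were higher in 2VO than in either sham library, and the myelin genes likewise in GABANs, at 6.47, 3.54 and 29.6. The part of this RNA in the neuronal values of 2VO was not tested.

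In GABANs most members were higher in 2VO, but none passed the test. None of 26 members was called by edgeR or by DESeq2, where 0.0131% of all 7662 genes were called by edgeR, and 2 members had an unadjusted p under 0.05. The median log2 fold change was 0.54 over the members, 22 of them above 0, beside −0.20 over all genes. Syn1, the synapsin encoded on the X chromosome, was at 81.3, 127 and 433 CPM, Amph at 51.5, 59.1 and 208, Cplx2 at 236, 388 and 1352 and Cplx1 at 260, 160 and 676. The 2VO value lay above both sham values in all 4, with log2 fold changes of 1.51 (Cplx1) to 1.87 (Cplx2) and SEs of 0.84 to 0.96. They rest on 12 to 78 UMIs from 13 cells in 2VO.

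The difference between the 2VO effects of the 2 neuron types was tested in its own fit. Of 29 members, 2 were called, where 1.01% of all 6556 genes were. Pclo, the active zone scaffold Piccolo, was at 485, 340 and 1473 CPM in GABANs and 483, 476 and 211 in GLUTNs. It was above both sham values in the GABANs of 2VO and below both in the GLUTNs, and the difference of the log2 fold changes was 3.01 (SE 0.66, edgeR adjusted p = 0.00218). Cplx2 was at 236, 388 and 1352 CPM in GABANs and 588, 605 and 594 in GLUTNs, and the difference was 2.12 (SE 0.61, edgeR adjusted p = 0.0498). With the C1ql2 GLUTNs alone in place of all GLUTNs, the differences were 2.95 for Pclo and 2.65 for Cplx2 (edgeR adjusted p = 0.00388 for both). Over the 29 members the median difference was 1.37, and 27 were above 0, beside a median of −0.02 over all genes. The GABANs fell into a subcluster led by Sst and Npy, with 22, 42 and 9 cells, and one led by Hapln1 and Lhx6, with 19, 4 and 4. In the first Pclo was at 452, 339 and 2137 CPM and Cplx2 at 424, 405 and 2056, with 2VO above both sham libraries. In the second Pclo was at 515, 367 and 289 on 99, 8 and 6 UMIs, with 2VO below both, and Cplx2 at 62.4, 138 and 96.4 on 12, 3 and 2 UMIs, with 2VO between them. The part of this makeup in the differences was not tested. Both calls were lost with RLE size factors (edgeR adjusted p = 0.122 and 0.269) and without the barcodes marked as doublets (0.142 and 0.366). Over all genes 2 were then called higher and 2 lower of 6556, and 7 and 5 of 6409.

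Between Cajal-Retzius neurons and GLUTNs the 2VO effects differed in 0 of 28 members by edgeR, with 2 at an unadjusted p under 0.05, and in 0.139% of all 4315 genes. Within Cajal-Retzius neurons 2 of 22 members were called in 2VO against sham, where 4.85% of all 4063 genes were. Beside Rab3a, this was Syngr1, at 32.5, 72.6 and 247 CPM on 8, 10 and 13 UMIs (log2 fold change 2.26, SE 0.59, edgeR adjusted p = 0.0221). The 2VO value lay above both sham values. Without doublets the call was lost (edgeR adjusted p = 0.211), and 0 of all 4275 genes were called.

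**Figure D5:**
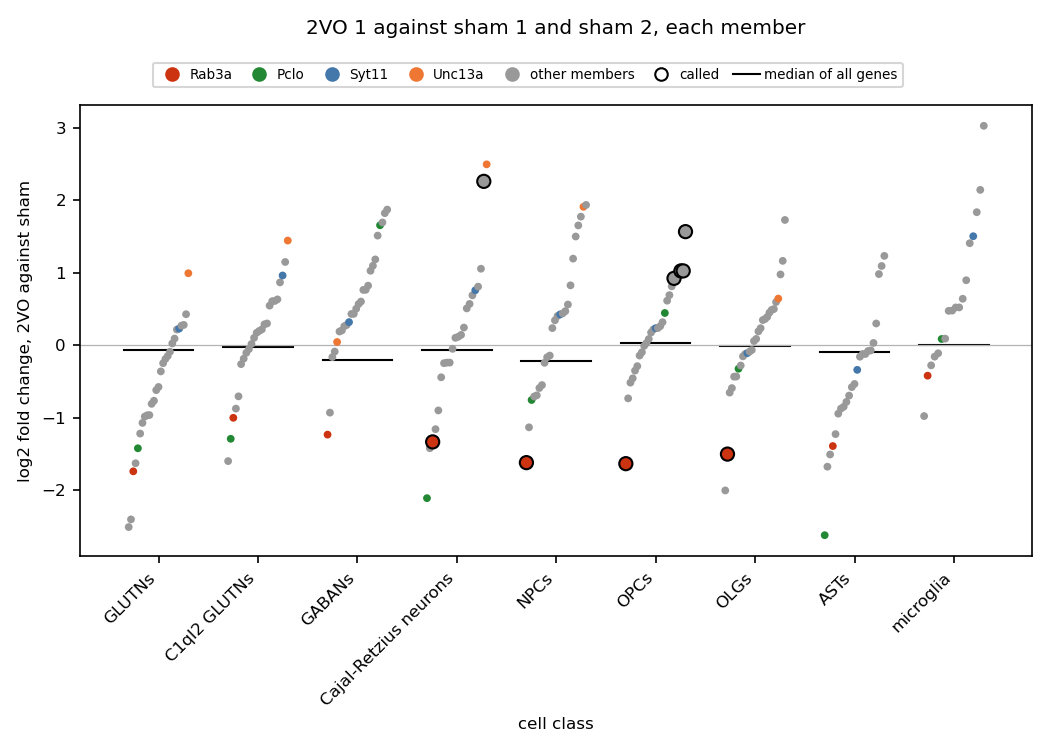
Log2 fold change of 2VO 1 against sham 1 and sham 2 by edgeR for each member tested, in order of size within 9 cell classes, with members at 0 in 2VO or in both sham libraries left out, so that Stx1a of GLUTNs is not drawn. Black rings mark called members and black lines the median of all genes. Rab3a (red) is ringed near the bottom of Cajal-Retzius neurons, NPCs, OPCs and OLGs.

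NPCs and OLGs each had Rab3a as their only called member, of 24 and 28 tested, where 6.46% of all 7526 and 9.13% of all 12165 genes were called. Of the members that OLGs hold at a high level, Syt11, at 2520, 1837 and 2561 CPM, Sv2a, at 295, 253 and 441 (log2 fold change 0.35, SE 0.20, edgeR adjusted p = 0.278), and Vamp2, at 115, 117 and 135, were not called, though 2VO lay above both sham values in all 3. That order held on the plain scale. On the TMM scale of the test, which moved 2VO against sham by −0.34 in OLGs, it held for Sv2a but not for Syt11 or Vamp2. In OLGs 11 of 13 microglial genes (median log2 fold change 4.07, summed level 2.84, 3.76 and 9.85 UMIs per 10000) and 5 of 8 endothelial genes (2.24, summed level 2.89, 3.83 and 6.79) were called higher, and their part was not tested. The median log2 fold change over the members of OLGs was 0.07, beside −0.01 over all genes.

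In ASTs none of 24 members was called by edgeR or DESeq2, where 0.00942% of all 10612 genes were called by edgeR, and 1 member had an unadjusted p under 0.05. It was Pclo, at 42.1, 37.2 and 6.85 CPM on 54, 57 and 1 UMIs (log2 fold change −2.62, SE 0.77, edgeR adjusted p = 0.311). Syt11, at 825, 699 and 651 CPM, and Vamp2, at 129, 127 and 95.9, were also lowest in 2VO, which held 39 ASTs.

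In microglia none of 18 members was called by edgeR or DESeq2, where 5.99% of all 9853 genes were called by edgeR, and 2 had an unadjusted p under 0.05. Sv2a was at 36.5, 17.1 and 83.7 CPM (log2 fold change 1.41, SE 0.41, edgeR adjusted p = 0.0808) and Syt11 at 249, 45.5 and 485 (1.50, SE 0.68, edgeR adjusted p = 0.212). The ratio of Syt11 between the sham libraries was larger than that between 2VO 1 and sham 1. Without the barcodes marked as doublets both passed the test, with log2 fold changes of 2.22 for Sv2a (edgeR adjusted p = 1.21e-05) and 3.38 for Syt11 (edgeR adjusted p = 6.24e-13). Over all 9456 genes tested, 1364 were then called higher and 949 lower, beside 368 and 222 of 9853 with the doublets kept. Sv2a and Syt11 are members that OLGs hold at a high level. Syt11 was near the OLG ratio to myelin RNA in the microglia of each library, as given above, while Sv2a had 0.322, 0.947 and 0.614 UMIs per 100 myelin UMIs in microglia and 0.249, 0.267 and 0.547 in OLGs. None of the 13 myelin genes was called in microglia (median log2 fold change 0.91), and 7 of 8 endothelial genes were called higher and 1 lower (2.05).

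The microglia fell into 2 clusters that changed places between the libraries. The one led by Mpeg1 held 73, 91 and 367 cells, with Sv2a at 103, 23.3 and 87.4 CPM and Syt11 at 840, 58.3 and 514, so that 2VO lay between the sham libraries for both. The one led by Gpr34 held 142, 113 and 17 cells, with Sv2a at 12.5, 14.5 and 32.6 CPM and Syt11 at 34.9, 40.2 and 81.4, above both. The part of this makeup in the microglial values was not tested. Synj1 and Nsf, at 38.4, 39.8 and 62.8 and at 28.3, 41.0 and 55.1 CPM, lay above both sham values in 2VO, at log2 fold changes of 0.48 and 0.47 with SEs of 0.30 and 0.35.

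Unc13a, Syt11, Sv2a and Vamp1 were above both sham libraries in most classes on the plain scale, in 13, 13, 12 and 12 of 14. Of all 9749 genes, 8.70% were above both in 12 or more classes, and of the 21 members with a UMI in each class these 4 were. On the TMM scale over the classes tested the counts were 5 of 6 for Unc13a, 5 of 8 for Syt11, 6 of 8 for Sv2a and 5 of 5 for Vamp1. Unc13a, the priming factor Munc13-1, was at 171, 126 and 343 CPM in GLUTNs, 146, 117 and 363 in C1ql2 GLUTNs, 16.3, 29.0 and 133 in Cajal-Retzius neurons, 26.3, 42.2 and 166 in NPCs and 8.13, 11.2 and 22.3 in OPCs. It was above both sham libraries in all 5, yet was called in none, with edgeR adjusted p from 0.0763 (OPCs) to 0.474 (C1ql2 GLUTNs). An exon of Colgalt1 overlaps it on the other strand, and Colgalt1 was at 52.5, 22.6 and 79.2 CPM in GLUTNs and 45.3, 33.7 and 51.6 in OPCs. Its part in the Unc13a values was not tested.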

How the data were processed

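Unique molecular identifier counts per gene and barcode were analysed for 3 libraries of 1 mouse each, 2 sham and 1 2VO. The authors made these deposited counts with Cell Ranger 3.1.0 on GRCm38 by the methods, and the labels name mm10 and Seurat 3.2.2. The whole hippocampus was dissociated at 37 °C by the labels and 34 °C by the methods. The minimum per barcode was 650 detected genes, and no unit other than raw counts was used.

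Cells were normalised per cell and clustered with scanpy 1.11.5 (2000 variable genes, 30 components, 15 neighbours, resolution 1), leaving out the 30 genes and 73 other release genes. Clusters were named from listed markers by a rule set after the clusters were seen, with at least 3 markers and 30% of a list detected. Scrublet marked 102, 132 and 117 cells of sham 1, sham 2 and 2VO 1 as possible doublets, and these were kept in the main results and left out in an alternative. The members and lists were chosen with earlier results of these data known.

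Counts were summed per library and class (at least 10 cells in every library) and tested with edgeR 4.0.16 in R 4.3.3 (quasi-likelihood test, TMM, filterByExpr, Benjamini-Hochberg adjustment over all genes). In pairs of classes the library was a block. DESeq2 1.42.0, RLE size factors, no filter, a minimum of 200 genes, thinned sums and libraries left out were the alternatives. The tests were tried on simulated data. Statistics were given for called members, and otherwise for the 4 with the smallest p among those with at least 50 counts, and in pairs of classes for the 3 called members with the largest fold each way. Each library held the sum of 64667950, 39017426 and 17681002 UMIs over kept cells in the order sham 1, sham 2 and 2VO 1, so 2VO values are the least precise. Nothing in the sources says more of the mice than 1 library each. The p-values measure the spread between these libraries, which edgeR estimates for each gene by pooling information over all genes tested. In 2VO against sham and in the difference of 2VO effects, that spread comes from the sham libraries alone, since 2VO has a single library. Protein sequences were not used here. Some of the other release genes are not reported here.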

Additional observations from a re-analysis of the deposited data

Results flagged for a closer look

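The effect of 2VO differed between GABANs and GLUTNs in 2 of the 29 members tested, by edgeR's test of the interaction of class and condition. For Pclo, the Piccolo scaffold, the difference of the log2 fold changes was 3.01 (SE 0.66, edgeR adjusted p = 0.00218), with 485, 340 and 1473 CPM in the GABANs and 483, 476 and 211 in the GLUTNs of sham 1, sham 2 and 2VO 1. For Cplx2, complexin 2, it was 2.12 (SE 0.61, edgeR adjusted p = 0.0498), with 1352 CPM in the GABANs of 2VO 1 beside 236 and 388 in sham, and nearly level values in GLUTNs. Neither gene was called in 2VO against sham within GABANs alone or GLUTNs alone. The 2VO side of both rests on 13 GABANs and 14 GLUTNs of 1 mouse. In the GABAN subcluster led by Sst and Npy, with 22, 42 and 9 cells, Pclo was at 452, 339 and 2137 CPM and Cplx2 at 424, 405 and 2056, while in the one led by Hapln1 and Lhx6, with 19, 4 and 4 cells, Pclo was at 515, 367 and 289 and Cplx2 at 62.4, 138 and 96.4.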

How the results depend on the processing

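The 2VO values rest on 1 mouse with few neurons, and 3 counts in its 14 GLUTNs stand for 39.6 CPM. In 2VO against sham, the count of called members went from 1 to 0 in GLUTNs with a minimum of 200 detected genes, with DESeq2, with thinned sums and with the C1ql2 GLUTNs alone. Over all genes, 74 were called higher and 81 lower of 8036. In these settings in turn it was 1 and 0 of 5574, 8 and 51 of 8036, 21 and 29 of 2565, and 9 and 2 of 3685. Calls over all genes are given in this form below. In Cajal-Retzius neurons the count of members went from 2 to 0 without doublets and with DESeq2, and to 1 with RLE size factors or thinned sums. All genes went from 82 and 115 of 4063 to 0 and 0 of 4275, 1 and 0 of 4063, 54 and 50 of 4063, and 79 and 15 of 1407. In NPCs the count of members went from 1 to 4 with the minimum of 200 genes, 3 without doublets and 0 with DESeq2. All genes went from 108 and 378 of 7526 to 149 and 392 of 7965, 165 and 413 of 8183, and 20 and 126 of 7526. In OPCs the count of members went from 5 to 0 with that minimum, 3 with the release genes used in the clustering or with RLE, and 1 with DESeq2. All genes went from 1647 and 2100 of 12450 to 0 and 0 of 12489, 1459 and 1923 of 12441, 1187 and 1717 of 12450, and 175 and 869 of 12450. In OLGs the count of members went from 1 to 0 with the release genes used in the clustering or thinned sums, and to 2 with no filter. All genes went from 331 and 780 of 12165 to 0 and 0 of 12514, 0 and 0 of 10090, and 1119 and 2511 of 17800. In microglia the count of members went from 0 to 1 with the minimum of 200 genes and to 3 without doublets or with no filter. All genes went from 368 and 222 of 9853 to 473 and 280 of 9978, 1364 and 949 of 9456, and 952 and 762 of 16252. The cause of these moves was not tested.

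The difference of 2VO effects between GABANs and GLUTNs gave 2 called members, and 1 with no filter and 0 with RLE size factors or without doublets. All genes went from 35 and 31 of 6556 to 13 and 6 of 15931, 2 and 2 of 6556, and 7 and 5 of 6409. With the C1ql2 GLUTNs alone, an alternative chosen after seeing the data, the counts of called members were 9 against GABANs (5 before), 15 against Cajal-Retzius neurons (23 before) and 18 against NPCs (28 before). Over all genes 410 and 443 of 3695, 607 and 651 of 2977, and 710 and 848 of 3519 were then called higher and lower. Leaving out each library in turn gave 3 to 11 called members for GABANs against GLUTNs, with 3 without sham 2 and 11 without 2VO 1, and 8 to 16 for ASTs against OLGs, with 8 without sham 2. Over all genes these fits called 186 higher and 193 lower of 5369, 604 and 628 of 6791, and 2165 and 2100 of 10699. The sum of the members in GLUTNs, 131 as the median per 10000 UMIs, was 156 with the minimum of 200 genes, where 0 cells were named C1ql2 GLUTNs. Thinned to 1000 UMIs, Slc17a7 was seen in 69.0%, 43.2% and 64.3% of the GLUTNs, Slc32a1 in 32.5%, 37.0% and 54.5% of GABANs, and Slc17a6 in 23.4% and 20% of sham Cajal-Retzius neurons.

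In the pairs of classes the library is the pairing, since both classes come from the same mouse. With no replicate block the counts of called members were 4 for GABANs, 17 for Cajal-Retzius neurons and 23 for NPCs against GLUTNs, and 17 for OPCs and 11 for ASTs against OLGs. Over all genes, 203 were called higher and 189 lower of 6556, 447 and 583 of 4315, and 871 and 1223 of 6985. For OPCs it was 2516 and 1842 of 12248, and for ASTs 2301 and 1840 of 10575. Of the named members Syngr1 lost its call in GABANs (edgeR adjusted p = 0.0634), and no other named call was changed by the block. No paired analysis was possible because sham and 2VO share only the replicate number 1, which names separate mice, so 2VO against sham was fitted without a block. Leaving out a sham library there leaves no residual degree of freedom, and gives values with no test.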

Other observations

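Among 73 other genes of the release machinery, 62 were tested in OPCs in 2VO against sham, and 15 were called higher and 9 lower by edgeR. They were led by Unc13b, Cacna1a, Nrxn3 and Cadps, all higher, where 30.1% of all genes were called. With a minimum of 200 detected genes 0 were called in OPCs, and with DESeq2 2 were higher and 4 lower. Over all genes these settings called 0 of 12489, and 175 higher and 869 lower of 12450. In Cajal-Retzius neurons 5 of 37 other release genes were called higher, among them Dnm3, Cacna1a and Syt7, where 4.85% of all 4063 genes were called. None of them was called without doublets, where 0 of all 4275 genes were. With DESeq2 none was called either, where 1 gene was higher and 0 lower of all 4063. Of 52 tested in NPCs Cadps was higher and Clta lower, where 6.46% of all genes were called. Of 56 tested in OLGs Cacna1a was higher and Ap2s1, Tprgl and Ap2a1 lower, where 9.13% were called. In microglia, where 5.99% were called, Dnm3 and Nrxn2 were higher of 37 tested. In C1ql2 GLUTNs, where 0.299% were called, Nrxn3 was higher of 50 tested.

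The difference of the 2VO effects between GABANs and GLUTNs was called for Cadps2, a priming factor of vesicle release among others. It was named after its values were seen. On the TMM scale Cadps2 was at 84.8, 77.2 and 1539 CPM in the GABANs of sham 1, sham 2 and 2VO 1 and at 82.6, 84.2 and 55.0 in the GLUTNs (difference 4.84, SE 0.74, edgeR adjusted p = 1.71e-07).

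The highest level of Slc17a7 among neuron subclusters was in cells that could not be named, at 1807 and 1635 CPM with the libraries pooled, and the subcluster at 1635, led by Rxfp1 and Cckbr, also held Slc17a6 at 84.3 CPM.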
